A study of Mus musculus with 19 samples.

Results

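The mitotic kinesins described here are 10 motor protein genes, Kif2c, Kif4, Kif11, Kif15, Kif18a, Kif18b, Kif20a, Kif20b, Kif22 and Kif23. They were chosen by gene symbol, with earlier results of these data known. All 10 were present among the 24062 genes of the bulk RNA sequencing table of 15 mouse gut libraries, and all 10 were present in 1 droplet single-cell library. All 10 passed the filter on low counts in both sets of bulk libraries.

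The adult samples were sorted colonic epithelial cells of mixed C57BL/6 and 129/Sv mice. The 2 knockout libraries held Ascl2 Fl/Fl; Lgr5 EGFP-Cre+ cells, in which tamoxifen (2 mg on days 1 and 2, then 1 mg) deleted Ascl2, which encodes a transcription factor active at the crypt base, where the Lgr5 allele drives Cre. The 2 regenerating libraries held Ascl2(mCh); Lgr5 Dtr-Egfp+ cells from mice given diphtheria toxin (4 injections of 50 ug/kg), which kills cells that express the receptor from the Lgr5 allele. The 3 wild-type libraries held stem cells with the same mCherry reporter and Lgr5 receptor allele. Knockout cells therefore differed from both other groups in Ascl2, in the Lgr5 allele, in the reporter and in tamoxifen, and these cannot be told apart. The hindgut libraries held Epcam-positive epithelium of wild-type CD1 embryos at E11, E12, E14 and E16, with 2 libraries an age. The single-cell library held mCherry-positive, GFP-negative cells of the regenerating genotype on day 8 and had no replicate. Where the adult labels do not say that libraries came from separate animals, p-values measure the spread between these libraries only, which may be technical.

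Kinesins are motor proteins that walk along microtubules or dismantle them with the energy of ATP. The mitotic members are made mainly as cells approach division: some push the spindle poles apart, some trim microtubule ends or move chromosome arms, and some build the midzone between the separating chromosomes and the bridge that is cut at the end of division. In the colon, dividing cells lie in the lower crypt, where stem and transit-amplifying cells replace the epithelium. In bulk RNA, fewer dividing cells and less kinesin RNA per dividing cell cannot be told apart.

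The promoters of the members share a sequence feature that their selection did not use. Many genes of late cell cycle carry TTTGAA, the cell cycle genes homology region, close to the start of transcription, and CCAAT, the box bound by the factor NF-Y. RefSeq promoters (GRCm38.p6, 250 bases before to 50 bases after a start, both strands searched) were at hand for 9 of the 10 members; Kif20a had no entry. TTTGAA, or TTCAAA on the other strand, was found in 8 of 9 members (88.9%), and in 17.9% of all 32851 promoters. The 8 include Kif2c, whose start used here lies inside the gene. Within 60 bases before to 50 after the start it was found in 7 of 9 members (77.8%), against 5.50% of all promoters. Among 16 promoters of spindle checkpoint and kinetochore genes 9 (56.2%) had it in that window, among 14 promoters of DNA replication genes 1 (7.14%), and among 15 promoters of transport kinesins, which carry cargo in cells that are not dividing, 1 (6.67%). Of 8 promoters of regulators of mitotic entry and exit, 4 (50%) had TTTGAA in that window. CCAAT or ATTGG was found in 5 of 9 members (55.6%), against 37.4% of all promoters, and both motifs in 5 of 9, against 6.95%. CCAAT was in 87.5% of entry and exit, 85.7% of replication, 56.2% of checkpoint and 33.3% of transport kinesin promoters. Both motifs were in 50%, 14.3%, 50% and 0% of these, so neither count is particular to the kinesins. The 2 motifs share no letters in any promoter of the members. A match is a run of letters and not a measured binding site.

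The windows of 30 bases around the match nearest to the start are shown so that the shared letters can be read across members. They run 5′ to 3′ in the direction of the gene, and capitals mark both motifs, read on either strand. The match began within 20 bases of the start, on either side, in every window except that of Kif2c, where it began at -103. The Kif2c gene spans chr4:117159633-117182624 on the minus strand, so its start used here is internal to the gene. Whether that start is used in these cells was not tested.
Kif11, chr19:37376351-37376380, plus strand: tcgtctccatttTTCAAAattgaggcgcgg
Kif15, chr9:122951050-122951079, plus strand: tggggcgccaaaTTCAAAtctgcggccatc
Kif18b, chr11:102925104-102925133, minus strand: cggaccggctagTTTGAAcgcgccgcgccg
Kif2c, chr4:117178858-117178887, minus strand: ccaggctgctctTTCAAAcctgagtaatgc
Kif4, chrX:100626072-100626101, plus strand: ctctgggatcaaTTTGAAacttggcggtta
Kif22, chr7:127042420-127042449, minus strand: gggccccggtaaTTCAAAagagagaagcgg
Kif20b, chr19:34922353-34922382, plus strand: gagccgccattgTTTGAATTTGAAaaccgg
Kif23, chr9:61946780-61946809, minus strand: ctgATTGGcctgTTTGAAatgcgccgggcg
The match lay on the strand opposite to the gene in Kif11, Kif15, Kif22 and Kif2c and on the strand of the gene in the other 4. Kif20b held 2 copies of the letters in tandem, beginning at 8 and 14. Kif18a had neither motif in its window of 300 bases.

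Kif11 and Kif22 are shown over the 100 bases before the start, because each held both motifs there in the same order, with the NF-Y letters upstream.
Kif11, chr19:37376282-37376381, plus strand: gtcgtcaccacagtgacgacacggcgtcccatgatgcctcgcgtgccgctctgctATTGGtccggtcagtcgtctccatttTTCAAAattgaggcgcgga
Kif22, chr7:127042421-127042520, minus strand: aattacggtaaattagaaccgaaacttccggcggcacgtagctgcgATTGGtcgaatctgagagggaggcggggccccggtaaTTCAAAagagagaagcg
In Kif11 the first base of ATTGG lay at -45 and that of TTCAAA at -19 from the start. In Kif22 the same letters began at -54 and -17.

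The bulk libraries held between 13826958 and 30583908 gene counts each. The targeted gene Ascl2 had 53.8 and 59.2 CPM (reads of a gene relative to all gene reads of its library, after TMM scaling) in knockout, 85.7 and 57.0 CPM in regenerating and 109.7, 151 and 104 CPM in wild-type libraries, so reads of the gene remained after knockout. Its knockout minus wild-type log2 fold change was -1.11 (SE 0.27, adjusted p 0.0115). The knockout and regenerating values of Ascl2 overlapped. Adjusted p-values are from the quasi-likelihood F test of edgeR, two-sided and Benjamini-Hochberg adjusted over all genes tested, and a gene is called where the adjusted p is below 0.05. The 2 knockout libraries stood apart: they had fewer gene counts (17926856 and 16553279), more multiply aligned reads (51.2% and 51.4% of aligned reads, against 36.4% to 40.2% in the other 5 adult libraries) and TMM factors of 0.616 and 0.660, against 1.11 to 1.32. Epithelial markers summed to 13962 CPM or more in every adult library, as their labelled tissue would have.

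The kinesins did not move together in Ascl2 knockout cells. Kif20a, Kif18b and Kif2c fell in knockout cells, with Kif20a down 11.2-fold, while no kinesin rose past the test. In all, 3 of 10 kinesins were called lower than in wild type and 0 higher, where 17.4% of all 13911 genes tested were called lower and 18.8% higher. The median of the 10 log2 fold changes was -0.59, against -0.02 over all genes. The 10 values ranged from -3.48 for Kif20a to 1.11 for Kif15. Both knockout libraries lay below all wild-type libraries for 6 kinesins, a pattern that 28.5% of all genes showed, and above them for Kif15 and Kif18a, as 29.5% of all genes did.

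**Figure D1:**
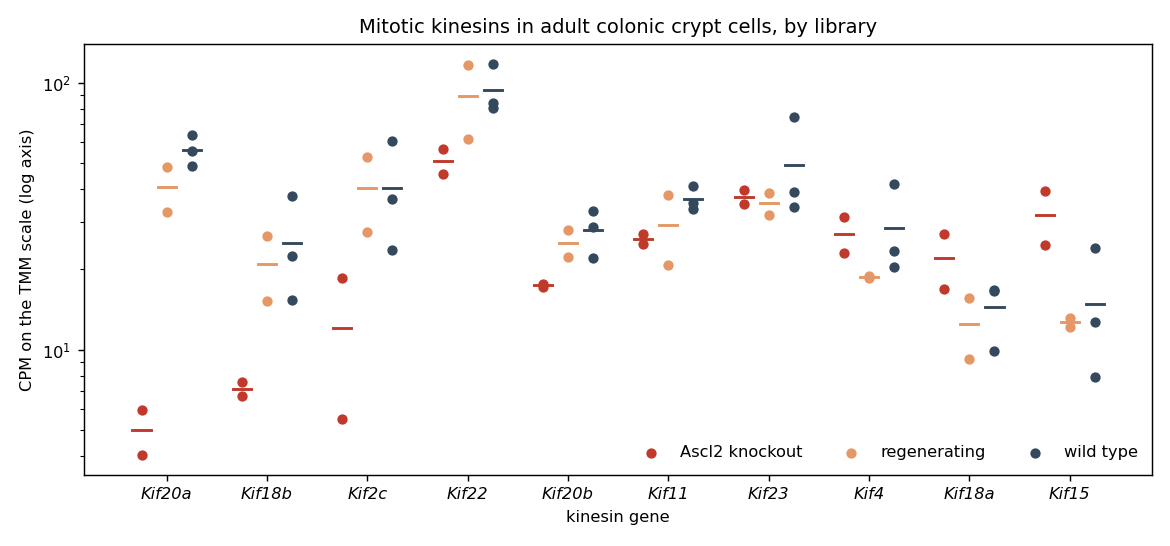
CPM (TMM scale, log axis) of each kinesin in every adult library, in the order of the knockout minus wild-type difference; points are libraries (2 knockout, 2 regenerating, 3 wild type) and short lines are group means. Both knockout points of Kif20a, at 5.98 and 4.03 CPM, sit far below every other Kif20a point. On this scale both knockout points of Kif15, at 39.3 and 24.7 CPM, sit above every other Kif15 point, the lower one narrowly.

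Among the motors that hold the 2 spindle poles apart, Kif11, the kinesin that slides antiparallel microtubules, was at 24.9 and 27.2 CPM in knockout, at 38.1 and 20.7 CPM in regenerating and at 35.5, 40.9 and 33.7 CPM in wild-type libraries. The knockout libraries lay below all 3 wild-type libraries and between the 2 regenerating ones. The log2 fold change against wild type was -0.49 (SE 0.31, adjusted p 0.252). Kif15, which helps to keep the spindle bipolar, was at 39.3 and 24.7 CPM in knockout, at 12.2 and 13.2 CPM in regenerating and at 24, 12.7 and 7.88 CPM in wild-type libraries. Knockout values lay above those of both other groups, by 1.11 against wild type (SE 0.46, adjusted p 0.0917) and 1.33 against regenerating cells on the log2 scale (SE 0.52, adjusted p 0.0831), and neither difference was called. Without wild-type replicate 1, the highest of its group, both were (1.64, adjusted p 0.0177, and 1.34, adjusted p 0.0377). Relative to gene counts without TMM factors, Kif15 reads overlapped between knockout and wild type. In knockout they were 434 of 17926856 and 270 of 16553279. Wild-type libraries had 818 of 27237804, 434 of 26013572 and 251 of 26217842.

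Among the motors that shorten microtubules or restrain their ends, Kif2c, which removes microtubules that are wrongly attached to centromeres, was at 18.6 and 5.50 CPM in knockout, at 52.9 and 27.7 CPM in regenerating and at 60.8, 36.9 and 23.7 CPM in wild-type libraries. Both knockout values were lower than all others, and knockout replicate 2 was far lower than replicate 1. The call against wild type (log2 fold change -1.75, SE 0.59, adjusted p 0.0458) was lost without knockout replicate 2 (-1.13, adjusted p 0.221), wild-type replicate 1 (-1.32, adjusted p 0.115), wild-type replicate 2 (adjusted p 0.0614) or regenerating replicate 1 (adjusted p 0.0541). Kif18b, which limits the microtubules that reach out to the cell cortex, was at 7.61 and 6.69 CPM in knockout, at 26.7 and 15.2 CPM in regenerating and at 37.8, 22.4 and 15.4 CPM in wild-type libraries. The knockout libraries did not overlap either other group, and Kif18b fell 3.52-fold against wild type (log2 fold change -1.82, SE 0.47, adjusted p 0.0156); without knockout replicate 1 or 2 the adjusted p was 0.0710 or 0.0879. Its relative Kif18a, which damps the movement of chromosomes at the spindle equator, was at 27.2 and 17.0 CPM in knockout, at 15.6 and 9.25 CPM in regenerating and at 16.6, 16.7 and 9.93 CPM in wild-type libraries. Kif18a thus stood on the other side of its reference from Kif18b, at 0.61 above wild type on the log2 scale (SE 0.41, adjusted p 0.276).

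The 2 motors that ride on chromosome arms were lower or level. Kif22, which pushes the arms towards the spindle equator, was at 56.6 and 45.4 CPM in knockout, at 116 and 61.6 CPM in regenerating and at 118, 80.6 and 84.2 CPM in wild-type libraries. The knockout values lay below all others and the difference from wild type narrowly missed the threshold (log2 fold change -0.89, SE 0.32, adjusted p 0.0556); without regenerating replicate 1 or 2 the adjusted p was 0.0365 or 0.0264. Kif4, which acts on chromosome arms and later on the midzone, was at 31.4 and 23 CPM in knockout, at 19.0 and 18.5 CPM in regenerating and at 41.9, 23.4 and 20.5 CPM in wild-type libraries. Knockout and wild-type values of Kif4 overlapped, with a log2 fold change of -0.07 (SE 0.36).

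The motors of the midzone and of cell separation differed most from each other. Kif20a, which brings the chromosomal passenger complex with its kinase Aurora B to the midzone, was at 5.98 and 4.03 CPM in knockout, at 48.3 and 32.9 CPM in regenerating and at 64.0, 55.4 and 48.7 CPM in wild-type libraries. These knockout values rest on 66 and 44 reads, and the groups were far from overlapping. Kif20a fell by 3.48 on the log2 scale against wild type (SE 0.34, adjusted p 0.000122), and 2.28% of all genes fell as far or further. Leaving out a knockout library leaves 1 in that group, and the fit then takes its spread from the other groups, here and for the other genes. The Kif20a call held without each adult library in turn, with log2 fold changes from -3.81 to -3.23. Kif20b, needed for the final cut between daughter cells, was at 17.7 and 17.2 CPM in knockout, at 28.0 and 22.2 CPM in regenerating and at 33.2, 28.9 and 22.1 CPM in wild-type libraries. All knockout values were the lower ones, with a log2 fold change of -0.69 (SE 0.30, adjusted p 0.107). Kif23, the motor subunit of centralspindlin, was at 39.6 and 35.3 CPM in knockout, at 38.7 and 32.1 CPM in regenerating and at 74.6, 39.0 and 34.2 CPM in wild-type libraries. Its groups overlapped (log2 fold change -0.40, SE 0.35).

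**Figure D2:**
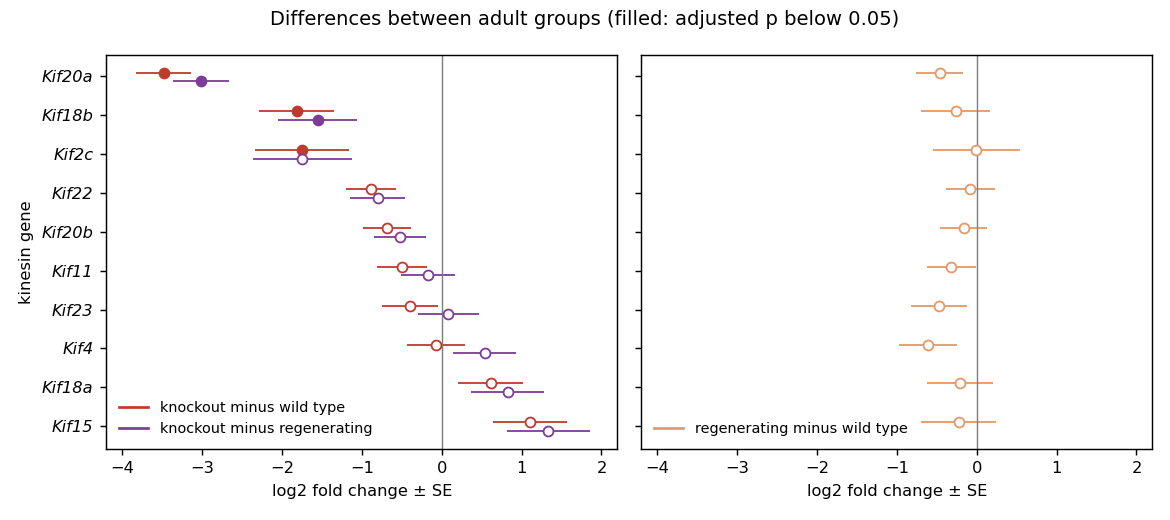
Log2 fold change of each kinesin with its standard error from the fit over 7 adult libraries; the left panel shows knockout minus wild type and knockout minus regenerating, the right panel regenerating minus wild type, and filled points have an adjusted p below 0.05. The left panel spreads from -3.48 to 1.33 while the right panel stays between -0.61 and 0.00.

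Shares of the reads within a library need no scaling between libraries. Kif20a made up 2.22% and 1.96% of the reads of the 10 kinesins in the knockout libraries, against 12.2% and 13.0% in the regenerating and 12.6%, 15.5% and 16.2% in the wild-type libraries. Kif15 made up 14.6% and 12% in knockout, against 3.08% and 5.21% in regenerating and 4.74%, 3.55% and 2.63% in wild-type libraries. The knockout shares of these 2 genes lay on opposite sides of those in both other groups. Kif20a and Kif15 had the lowest and highest knockout minus wild-type log2 fold changes, so the shares describe the same difference again. A share of the sum also rises when other members fall. Against Mki67, a marker of cycling cells, Kif20a had 4.11% and 3.26% as many reads in knockout, against 95.8% and 79.9% in regenerating and 78.5%, 86.5% and 75.2% in wild-type libraries. On the TMM scale Mki67 itself was higher in knockout cells, at 145 and 124 CPM, against 81.6, 64.1 and 64.7 CPM in wild type (log2 fold change 0.94, adjusted p 0.00900). Relative to gene counts without TMM factors, Mki67 reads overlapped between these groups. They were 1604 of 17926856 and 1349 of 16553279 in knockout. In wild type they were 2779 of 27237804, 2192 of 26013572 and 2061 of 26217842. With scaling by library size only, the kinesins' log2 fold changes moved down with the median of all genes, which was then -1.001; 8 kinesins were then called lower and Kif18a changed sign, at -0.39. Over all genes, that scaling gave 1233 calls higher and 5328 lower, against 2618 higher and 2421 lower with TMM. Kif20a, at -4.47, was again the lowest kinesin.

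Against regenerating cells, 2 kinesins were called lower in knockout cells, where 16% of all genes were called lower, and 0 higher, where 15.4% were. Kif20a fell 8.10-fold (log2 fold change -3.02, SE 0.35, adjusted p 0.000411) and Kif18b 2.93-fold (-1.55, SE 0.49, adjusted p 0.0410). Kif2c, at -1.74, had an adjusted p of 0.0628. With scaling by library size only, 5 kinesins were called lower, and the split over all genes was 1070 higher and 4408 lower, against 2139 and 2223 with TMM. Both knockout libraries lay below both regenerating libraries for 5 kinesins (37% of all genes) and above them for Kif15, Kif18a and Kif4 (32.8% of all genes). Both knockout comparisons use the same 2 knockout libraries, so their values are not independent of each other. The Kif18b call was lost without knockout replicate 1 or 2, and without regenerating replicate 1 (log2 fold change -1.11, adjusted p 0.253).

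Between knockout and wild type, genes of the related lists were called in both directions, where 18.8% of all genes were called higher and 17.4% lower. Counts near those shares say nothing particular about a list. Of the 4 genes of the chromosomal passenger complex, the cargo of Kif20a, Birc5 rose (log2 fold change 1.85, adjusted p 0.000898), Aurkb fell (-1.21, adjusted p 0.0173), and Cdca8 was at 0.26 (adjusted p 0.551). Of 9 genes of the central spindle and cytokinesis, 1 rose and 2 fell, and the largest by level were Rhoa (-0.51, not called), Arf6, which rose by 0.70, and Prc1 (0.47, not called). Of 16 spindle checkpoint and kinetochore genes tested, 2 rose, with Spc24 at 1.75 and Cenpa at 1.18, and 3 fell. Of 8 condensin genes 2 rose, with Smc2 at 1.39, and 3 fell, with Ncaph2 at -0.95. Of 10 regulators of mitotic entry and exit 3 rose, with Ube2c at 1.59 and Cdk1 at 1.02, and 3 fell. Of 12 spindle assembly genes 1 fell and 0 rose. Of 16 DNA replication genes 9 fell, with Mcm6 at -1.90 and Rrm1 at -1.96, and 3 rose, with Tyms at 1.36. Among 13 genes of late cell cycle transcription 4 fell and 1 rose; E2f4, a subunit of the complex that represses such genes, fell by 3.15 on the log2 scale (adjusted p 6e-05), and Foxm1, an activator of mitotic genes, was at -0.92 (adjusted p 0.149). Of 16 transport kinesin genes tested, 2 rose and 3 fell, among them Klc1 at -1.40 and Klc4 at -0.98. The other mitotic kinesins gave no call among the 4 tested, with Cenpe at 0.40, Kif24 at 1.40 and Kif14 at 0.39.

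Marker sums of several other cell types also differed between knockout and wild type, and some of them likewise between regenerating cells and wild type. Goblet and deep crypt secretory markers summed to 38183 and 50135 CPM in knockout, to 27825 and 46865 CPM in regenerating and to 2875 to 8177 CPM in wild-type libraries, and 5 of 10 rose against wild type. Colonocyte markers summed to 21220 and 15918 CPM in knockout, 1181 and 5472 CPM in regenerating and 2043 to 13347 CPM in wild-type libraries. Tuft markers summed to 4.80 and 3.30 CPM in knockout, with 2 of 5 at 0, and 31.6 to 51.1 CPM in wild type, with 0 or 1 of 5 at 0. Regenerating libraries were as low in tuft markers, at 2.96 and 3.25 CPM, so that difference is not particular to the knockout. All 7 enteroendocrine markers were detected in every knockout and wild-type library, with summed levels of 1837 and 2498 CPM in knockout, against 77.9 to 190.4 CPM in wild type. Stromal markers summed to 126 and 216 CPM in knockout, with 0 of 8 genes at 0, and to 2.10 to 4.52 CPM in wild type, where 5 or 6 of 8 genes were at 0. Immune markers summed to 3285 and 887 CPM in knockout and to 143 to 6306 CPM in wild type. Stem cell markers summed to 381 and 392.5 CPM in knockout, against 1202 to 1534 CPM in wild type, and 8 of 10 were called lower. That list includes Ascl2, the targeted gene, and Lgr5, whose allele differed between the groups. Its sum and its count of calls may thus follow in part from the design. The part of these cells in the kinesin differences was not tested.

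The neighbours of Kif20a were looked at because they overlap it. Its span shares 4930 bases with Cdc23, a subunit of the ubiquitin ligase that ends mitosis, and 240 bases with Brd8, a chromatin protein. The strand setting of the counting is not given in the sources used here, so reads of overlapping genes cannot be told apart if it used no strand. Cdc23 ranged from 2.75 to 5.98 CPM in the knockout libraries, on 96 reads in all, and at 36.3 to 37.7 CPM in wild type; it fell by 3.09 on the log2 scale (SE 0.38, adjusted p 0.000388). Brd8, on the other side of Kif20a, ranged from 63.9 to 106 CPM in knockout, against 53.5 to 65.8 CPM in wild type, and was not called (0.53, adjusted p 0.134). Kif18a shares 593 bases with Mettl15, which was not called (-0.68, adjusted p 0.332).

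The kinesins' knockout differences are set here beside 2 properties, picked after the values were seen: the length of the gene and its level in single cells rich in replication genes. The genomic span of the members runs from 8654 bases for Kif20a, 14739 for Kif22, 19617 for Kif18b and 22992 for Kif2c to 61012 for Kif18a, 67653 for Kif15 and 101207 for Kif4. Spearman's rho between span and the knockout minus wild-type log2 fold change was 0.88 over the 10 genes. Over all 13847 genes with a span the same rho was -0.16, so the kinesins ran against the trend of the other genes. In a fit with an offset for span, chosen after the values were seen, Kif20a (-3.63, adjusted p 0.000186) and Kif18b (-1.57, adjusted p 0.0323) were called and Kif2c (-1.43, adjusted p 0.0970) was not. The points share the same libraries, and a rho over 10 genes is a description.

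The second property comes from the day 8 single cells. Cluster 6 of that library was led by Ube2c, Nusap1 and Cenpf, genes of mitosis. Of the 2 clusters richest in replication genes, cluster 5 was led by Uhrf1, Mcm3 and Slfn9 and cluster 3 by histone genes, and the mitosis marker list summed to 658 CPM in cluster 5, 2669 CPM in cluster 3 and 5882 CPM in cluster 6. As a percentage of its level in cluster 6, Kif20a was at 5.30% in cluster 5 (95% counting interval 2.99% to 8.73%) and at 44.6% in cluster 3 (37.0% to 53.5%). Kif2c was at 6.42% in cluster 5 and 40.3% in cluster 3, and Kif18b at 9.64% and 44.0%. At the other end, Kif4 was at 27.4% in cluster 5 and 65.01% in cluster 3, Kif15 at 15.1% and 67.8%, and Kif18a at 18.9% and 59.4%. Spearman's rho of these percentages with the knockout minus wild-type log2 fold change was 0.71 for cluster 5 and 0.93 for cluster 3, over 10 genes. In cluster 5, Kif23, Kif20b and Kif4 had the highest percentages but log2 fold changes of -0.40, -0.69 and -0.07. The level of Kif20a in cluster 5 was 2.48 CPM (1.42 to 4.03), beside 1.16 CPM (0.42 to 2.52) in cluster 0, where mitosis genes were scarce, and 13.5 CPM in barcodes that hold mainly free RNA, and the part of free RNA in the cluster 5 level was not tested. Kif2c, at 2.64 CPM in cluster 5 (1.54 to 4.22), 0.58 CPM in cluster 0 (0.12 to 1.69) and 8.77 CPM in those barcodes, has the same limit. The percentage in cluster 5 and the span were related to each other (rho 0.82). Between E16 and E14, rho was 0.04 with the percentage in cluster 5, -0.21 with that in cluster 3 and -0.02 with the span.

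**Figure D3:**
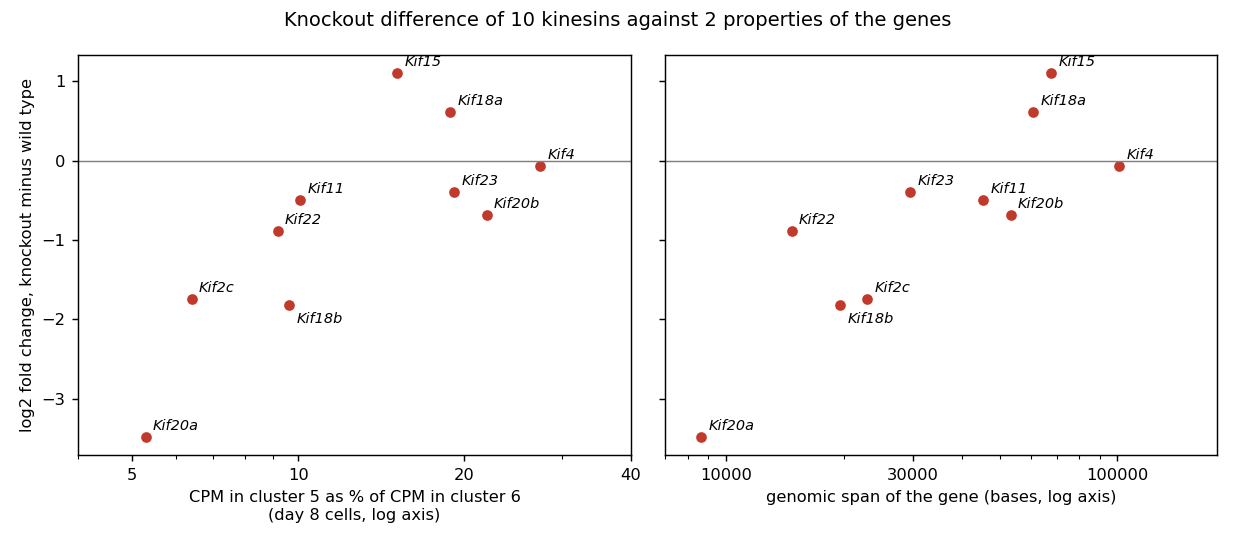
Knockout minus wild-type log2 fold change of the 10 kinesins (vertical axis, one point a gene) against the CPM in cluster 5, led by replication genes, as a percentage of that in cluster 6, led by mitosis genes (left, log axis), and against the genomic span of the gene (right, log axis). Kif20a lies at the lower left of both panels and Kif15 and Kif18a at the top.

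Regenerating cells and wild-type stem cells had kinesin levels that the data did not separate. All 10 log2 fold changes of regenerating minus wild type were at or below 0, from -0.61 (Kif4, SE 0.37) to -0.00 (Kif2c, SE 0.55), with a median of -0.25 against 0.01 over all genes. By edgeR 0 of 10 were called, where 0.331% of all genes were called, and 0 of 10 had an unadjusted p below 0.05; DESeq2 also called 0. The sum over the 10 genes was 396 and 253 CPM in the regenerating libraries, against 506, 357 and 300 CPM in wild type. Wild-type replicate 1 was the highest of these 5 libraries for every kinesin except Kif11 and Kif18a; Kif23 stood there at 74.6 CPM beside 39.0 and 34.2 CPM in the other wild-type libraries. Without it the log2 fold changes of Kif2c (0.41), Kif15 (0.30), Kif18b (0.15) and Kif22 (0.11) were positive. Only Kif4 and Kif20a had both regenerating libraries below all 3 wild-type ones, a pattern that 11.3% of all genes showed. Related lists behaved likewise, with 0 of 16 checkpoint, 0 of 12 spindle assembly and 0 of 16 replication genes called. The standard errors were 0.29 to 0.55 on the log2 scale, as wide as most of the differences, so these libraries do not show that the 2 groups are alike.

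In the embryonic hindgut 9 of 10 kinesins fell between E14 and E16, while at the earlier ages the members differed in when they were highest. Summed over the 10 genes, the level was 672 and 855 CPM at E11, 1032 and 1002 CPM at E12, 1173 and 1167 CPM at E14 and 610 and 522 CPM at E16. All 10 differed over the 4 ages by the F test of edgeR, with adjusted p-values from 0.000242 for Kif23 to 0.0389 for Kif20b, where 63% of all 16481 genes tested did.

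**Figure D4:**
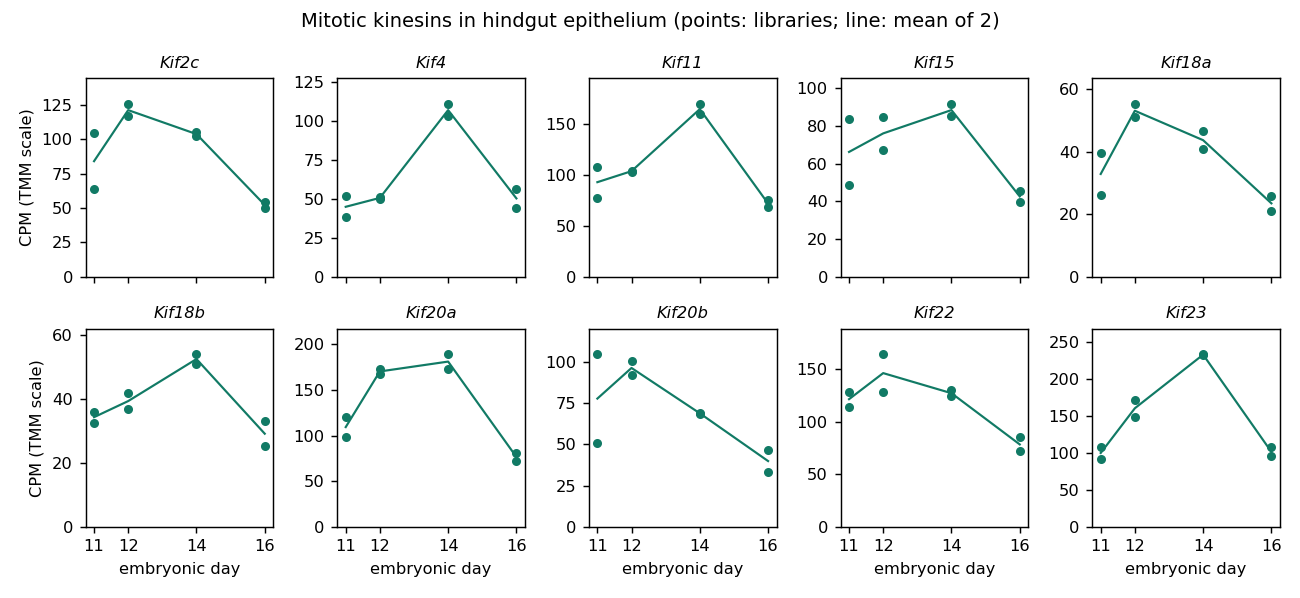
CPM (TMM scale) of each kinesin in the 8 hindgut libraries by embryonic day; points are libraries, 2 an age, and lines join the means. Every kinesin is lower at E16 than at E14, while the age of the highest mean is E12 for some genes and E14 for others.

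Between E12 and E11, 2 kinesins rose and 0 fell, where 1.76% of all genes rose and 0.874% fell. Both E12 libraries lay above both E11 libraries for Kif2c, Kif18a, Kif18b, Kif20a and Kif23, a pattern of 22.5% of all genes. The 2 called genes act in the midzone. Kif23, the motor subunit of centralspindlin, was at 149 and 172 CPM at E12, against 107 and 92.3 CPM at E11 (log2 fold change 0.68, SE 0.12, adjusted p 0.0340). Kif20a, the carrier of the chromosomal passenger complex, was at 168 and 173 CPM at E12, against 98.1 and 120 CPM at E11 (0.64, SE 0.12, adjusted p 0.0442). The ages did not overlap for either gene, but a fit of the E11 and E12 libraries alone called neither. Leaving out 1 library gave 0 calls for each library of E12, E14 and E16, 1 without E11 replicate 1 and 4 without E11 replicate 2. For Kif11, Kif15, Kif20b and Kif4 the 2 E11 libraries were far apart, replicate 2 being the higher, and the E12 values overlapped them.

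Between E14 and E12, 3 kinesins rose, where 14.4% of all genes did, and 0 fell, where 13.9% did. Both E14 libraries lay above both E12 libraries for 6 kinesins (34.3% of all genes) and below them for Kif2c, Kif18a and Kif20b (35.8% of all genes). Kif4, the chromosome arm and midzone motor, was at 103 and 110 CPM at E14, against 49.8 and 51.2 CPM at E12, and rose 2.11-fold (log2 fold change 1.08, SE 0.18, adjusted p 0.00482). Kif11, the pole-separating motor, was at 170 and 160 CPM at E14, against 103 and 104 CPM at E12 (0.67, SE 0.16, adjusted p 0.0166). Kif23 was at 233 and 232 CPM at E14, against the E12 values above (0.54, SE 0.12, adjusted p 0.0145). The others stood between -0.48 and 0.42; Kif20b, the abscission motor, was at 69.0 and 68.5 CPM at E14, against 101 and 91.8 CPM at E12 (-0.48, SE 0.31, adjusted p 0.274). Without E12 replicate 1 or either E14 library, 1 kinesin was called. Related lists also moved in part. Of 8 condensin genes 4 rose and 0 fell, and of 12 spindle assembly genes 3 rose, with Numa1 at 0.89, and 0 fell. Of 10 regulators of entry and exit 1 rose and 4 fell, with Ube2c at -0.65. Foxm1, the activator of mitotic genes, rose by 1.08 on the log2 scale (adjusted p 0.0030).

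Between E16 and E14, 9 of 10 kinesins fell and 0 rose, where 19% of all genes fell and 20.6% rose. All 10 had both E16 libraries below both E14 libraries, a pattern of 38.5% of all genes. The median log2 fold change was -1.02, against 0.00 over all genes. Kif20a was at 80.4 and 72.6 CPM at E16, against 173 and 189 CPM at E14, and fell 2.37-fold (log2 fold change -1.24, SE 0.13, adjusted p 0.000349). Kif23 was at 107 and 95.3 CPM at E16 (-1.20, SE 0.12, adjusted p 0.000365), and Kif11 at 75.7 and 68.4 CPM (-1.19, SE 0.16, adjusted p 0.00109). Kif4 was at 56.4 and 43.9 CPM at E16 (-1.09, SE 0.18, adjusted p 0.00305). These 4 genes had the largest falls of the family.

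The remaining motors had smaller differences. Kif15, the second bipolarity motor, was at 45.5 and 39.6 CPM at E16, against 91.4 and 85.3 CPM at E14 (log2 fold change -1.05, adjusted p 0.0125). Kif2c, the centromere depolymerase, was at 54.2 and 50.2 CPM at E16, against 105 and 102 CPM at E14 (-0.99, adjusted p 0.00874). The plus-end motors Kif18a and Kif18b both fell, by 0.89 (adjusted p 0.0166) and 0.85 (adjusted p 0.00851) on the log2 scale. Kif22, the arm motor, was at 85.2 and 71.8 CPM at E16, against 130 and 124 CPM at E14 (-0.70, adjusted p 0.00856). Kif20b was the 1 kinesin not called, at 46.2 and 33.4 CPM at E16, against 69.0 and 68.5 CPM at E14 (-0.79, SE 0.31, adjusted p 0.0789). Without E16 replicate 2, the shallowest bulk library, 4 kinesins were called.

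From E11 to E16 as a whole, 4 kinesins were called lower at E16, where 26.2% of all genes were, and 0 higher, where 29.6% were. The 4 called genes were Kif20b (log2 fold change -0.96, adjusted p 0.0308), Kif2c (-0.69, adjusted p 0.0260), Kif22 (-0.63, adjusted p 0.00848) and Kif20a (-0.51, adjusted p 0.00963). Both E16 libraries lay below both E11 libraries for these 4 and for Kif11, Kif15 and Kif18a, a pattern of 36.8% of all genes. Kif23, at 0.02, and Kif4, at 0.16, had overlapping libraries. The count was 7 without E11 replicate 1, 2 without E11 replicate 2 or E16 replicate 1, and 0 without E16 replicate 2.

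Other genes of cell division also fell between E14 and E16, where 19% of all genes fell and 20.6% rose. Of 16 checkpoint and kinetochore genes 13 fell, with a median log2 fold change of -0.86, of 12 spindle assembly genes 11 and of 16 DNA replication genes 15, with no gene of these lists rising. All 8 condensin genes and all 4 passenger genes fell, with Aurkb at -0.998. Prc1, which bundles the midzone microtubules on which Kif4, Kif20a and Kif23 act, fell by 1.09 (adjusted p 0.0008). Of 9 central spindle genes 6 fell and 1, Arf6, rose (0.70, adjusted p 0.0041). Of 10 regulators of entry and exit 7 fell and 1 rose, of 13 genes of late cell cycle transcription 3 fell, with Foxm1 at -0.995, and 1 rose, and of 4 other mitotic kinesins 2 fell, with Kif14 at -1.45. Of 18 transport kinesin genes 3 rose and 4 fell, with a median of -0.17. Mki67 fell by 0.87 (adjusted p 0.0102).

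Other cell types moved with age as well. Stromal markers summed to 9087 and 7778 CPM at E16, against 152 and 163 CPM at E14, and immune markers to 2012 and 2156 CPM at E16, with 0 of 10 genes at 0, against 38.2 and 42.8 CPM at E14, where 2 of 10 were at 0. Goblet and deep crypt secretory markers summed to 7694 to 8427 CPM at E16, against 60.9 to 65.3 CPM at E14, and epithelial markers to 8947 to 9059 CPM at E16, against 7128 to 7157 CPM at E14. Reads that fell on more than 1 gene were 5.60% and 6.80% of assigned and ambiguous reads at E16, against 1.41% and 1.44% at E14. The part of these differences in the fall of the kinesins was not tested.

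Across libraries, Pearson's r of each kinesin with the mean of the other 9 ran from 0.62 (Kif4) to 0.98 (Kif20a) over the 8 hindgut libraries. Over the 7 adult libraries it ran from -0.10 (Kif15) and 0.11 (Kif18a) to 0.83 (Kif20b). The libraries share groups, so these values describe the groups as much as the genes. Outside the family, the genes most like the mean of the kinesins in both sets, ranked by the lower of the 2 values of r among 13467 genes, were Cdc20, which activates the ligase that ends mitosis (0.93 in adult and 0.97 in hindgut libraries), Eme1, Bub1b, a checkpoint kinase-like protein (0.91 and 0.96), Haus6, a subunit of the complex that branches spindle microtubules (0.93 and 0.90), and Ccna2, cyclin A2 (0.88 and 0.92).

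In the day 8 regenerating library, kinesin UMIs were found more often in cells with more UMIs of other mitosis genes. Of 3230 cells with at least 7348 unique molecular identifiers (UMIs, counts of distinct RNA molecules; median 21686), the 10 genes together made up 246 CPM. With 1 library there is no test between conditions, and intervals cover counting error only. Kif20b gave 3768 UMIs, Kif11 3507, Kif23 2765, Kif15 2585, Kif4 2327, Kif22 1740, Kif20a 1039, Kif18a 977, Kif2c 882 and Kif18b 324.

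To compare cells of unequal depth, each was thinned to 7348 UMIs, which lowered detection: Kif20b was found in 39.4% of cells before and 19.5% after, and Kif18b in 8.30% before and 2.54% after. A cell without a UMI at this depth may still hold the RNA. After thinning no kinesin was found in 1785 cells (55.3%), a single kinesin in 542, and 9 kinesins in 1 cell. Cells were set in order of their UMIs of 23 other mitosis genes. A kinesin was found in 14.7% (95% exact interval 13.0% to 16.5%) of the 1644 cells with 0 to 2 such UMIs, in 48.3% of 603 cells with 3 to 9, in 88.5% of 555 cells with 10 to 29 and in 98.6% (97.0% to 99.5%) of 428 cells with 30 or more. The last group, 13.3% of cells, held 52.7% of the kinesin UMIs.

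Single genes kept to this order. Kif11 was found in 1.28%, 8.29%, 35.7% and 67.8% of cells over the 4 steps. Kif20a was found in 0.30%, 2.16%, 14.4% and 26.9%, and Kif18b in 0.06%, 1.16%, 4.5% and 11.4%. Kif23 (4.62%) and Kif20b (4.08%) were the most often found in the cells with the fewest mitosis UMIs.

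**Figure D5:**
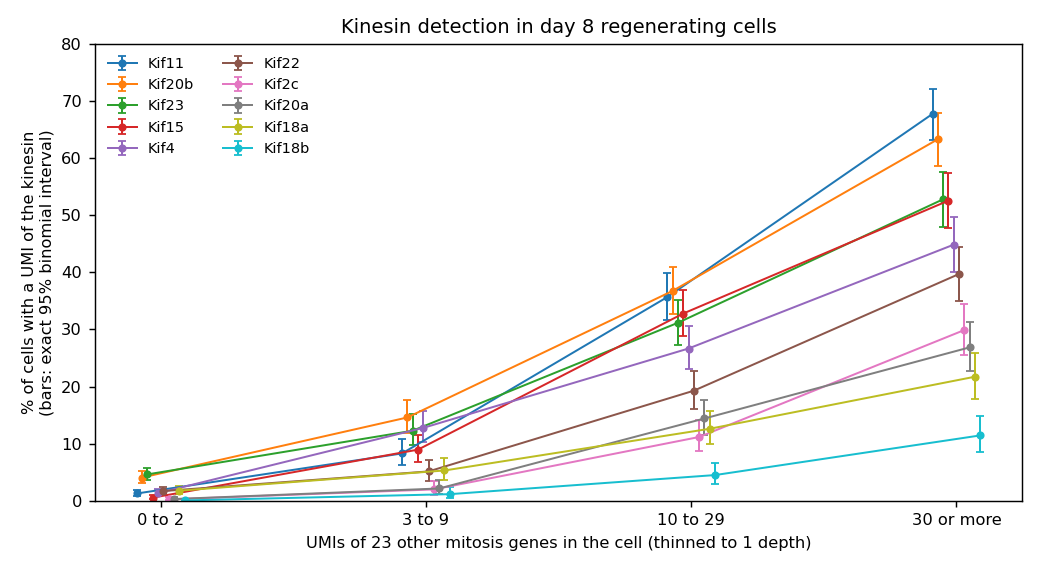
Percentage of cells with at least 1 UMI of each kinesin after thinning to 7348 UMIs a cell, by the number of UMIs of 23 other mitosis genes in the cell; lines are 95% exact binomial intervals. Every kinesin is found more often at each step, and Kif11 reaches 67.8% in the last.

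Of 16 clusters made without the members, cluster 6, led by Ube2c, Nusap1 and Cenpf, had the highest summed kinesin level, at 837 CPM. Its 218 cells held 29.8% of the kinesin UMIs and 8.76% of all UMIs. Kif11 was at 166 CPM there (157 to 176), against 1.35 CPM (0.54 to 2.78) in cluster 0, which was led by Cma1, Sval1 and Ccl6. Cluster 7, led by Lyz1, Hist1h2ap and Prc1, came second at 547 CPM, beside 15741 CPM of goblet and deep crypt secretory markers; the same markers stood at 1097 CPM in cluster 6 and 64359 CPM in cluster 0, where the kinesins summed to 20.2 CPM. Cluster 8, led by Cdkn3, Cenpa and Cdc20, had 398 CPM, cluster 3, led by histone genes, 463 CPM, and cluster 5 131 CPM. In cluster 13, led by 1810065E05Rik, Cyp2c55 and Reg3b, the sum was 7.67 CPM. Unthinned, Kif11 was found in 98.6% of cells in cluster 6, at a median of 30273.5 UMIs, and in 1.67% of cells in cluster 0, at a median of 11794. Barcodes with 10 to 100 UMIs, which hold mainly free RNA, had 33.9 CPM of Kif11 and 13.5 CPM of Kif20a, beside 43.4 and 12.9 CPM in cells, so UMIs of free RNA may be among those counted in any cluster; their share was not estimated.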

How the data were processed

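Raw counts per gene of 15 bulk libraries were deposited as whole numbers; per the submitters' processing notes the tools were STAR 2.5.3a, HTSeq and DESeq2 for bulk RNA and Cell Ranger 3.0.2 for single cells, with the builds GRCm38 and mm10. Annotation and strand setting are not given in the sources used here. The 5 entries that name no gene were left out, and ambiguous and multiply aligned reads are given where they bear on a result. The 7 adult and 8 hindgut libraries were fitted apart with edgeR 4.0.16 in R 4.3.3 (TMM scaling, filterByExpr by group, quasi-likelihood F test, two-sided, threshold 0.05 on Benjamini-Hochberg adjusted p over 13911 and 16481 genes), which was tested on simulated data. In the simulated data genes had the same mean in all groups, apart from planted changes up and down in equal number. The scaling of the knockout libraries was therefore not tested by them. DESeq2 1.42.0 was an alternative. CPM are on the TMM scale.

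The deposited UMI counts of the single-cell library were analysed with scanpy 1.11.5 (Python 3.11.15): barcodes with at least 7348 UMIs and at most 20% mitochondrial UMIs, 2000 variable genes without the members, 30 principal components, 15 neighbours, Leiden resolution 1. Scrublet marked 3 cells, which were kept. Intervals are exact, from scipy 1.17.1.

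The members, the 10 lists of related genes and the marker lists were chosen with earlier results of these data known. Named genes are all members, Ascl2, Mki67, the 5 genes most like the members and, from each list, up to 3 with the highest mean level; genes that overlap a member were added because of the overlap, after values were seen. The 3 ChIP-seq libraries were not analysed here.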

Additional observations from a re-analysis of the deposited data

How the results depend on the processing

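Of 1020 alternative values for single kinesins, 881 kept their direction and side of the threshold, 61 lost a call, 44 gained one and 34 changed sign; of the counts of called kinesins 85 of 116 stayed within 1.5 times, and of the counts of called genes 88 of 116. For knockout against regenerating cells, the kinesins called were 1 with DESeq2-type (RLE) scaling, 5 with library size only, 4 with DESeq2 and 1 with span offsets; against wild type they were 8 with library size only. Between E12 and E11 they were 0 with the replicate block, with span offsets and with only the compared libraries; between E16 and E11, 7 with span offsets and 2 with only the compared libraries; between E14 and E12, 5 with only the compared libraries. Genes called between regenerating cells and wild type were 372 with DESeq2, 225 without the filter and 6 with only the compared libraries, against 46; between E12 and E11 they were 2431 (DESeq2), 266 (replicate block) and 54 (compared libraries), against 434. Signs turned with library size for Kif18a against wild type (-0.39), Kif4 (-0.27) and Kif23 (-0.72) against regenerating cells and Kif23 between E16 and E11 (-0.036), without the filter for Kif2c in regenerating cells (0.0099), and with span offsets for Kif11 against regenerating cells (0.18), Kif15 between E14 and E12 (-0.013), and Kif4 (-0.11) and Kif23 (-0.072) between E16 and E11. The cause was not tested.

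Leaving out each library in turn, where a group left with 1 library is assumed to vary like the others, kinesins called ranged from 1 to 4 (knockout against wild type), 1 to 3 (knockout against regenerating), 0 to 4 (E12, E11), 1 to 3 (E14, E12), 4 to 10 (E16, E14), 0 to 7 (E16, E11) and 5 to 10 (all ages). Genes called ranged from 1 to 39 (regenerating against wild type), 2446 to 4668 (knockout against regenerating), 119 to 919 (E12, E11), 1717 to 5846 (E14, E12) and 3468 to 7888 (E16, E14). Log2 fold changes that changed sign ranged, for regenerating against wild type, from -0.54 to 0.41 (Kif2c), -0.82 to 0.015 (Kif11), -0.53 to 0.30 (Kif15), -0.64 to 0.082 (Kif18a), -0.72 to 0.15 (Kif18b) and -0.61 to 0.27 (Kif22); for knockout against wild type from -0.33 to 0.31 (Kif4) and -0.60 to 0.039 (Kif23); for knockout against regenerating from -0.60 to 0.31 (Kif11) and -0.10 to 0.21 (Kif23); for E12 and E11 from -0.036 to 0.40 (Kif4), -0.064 to 0.41 (Kif11), -0.14 to 0.63 (Kif15) and -0.13 to 0.91 (Kif20b); and for E16 and E11 from -0.040 to 0.40 (Kif4) and -0.086 to 0.13 (Kif23).

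Same-numbered libraries correlated at -0.03 to 0.107 and differently numbered ones at -0.12 to 0.12, which does not settle whether the numbers pair them. Between groups of 2 libraries the values of both kinds mirror each other by construction. With the replicate block 4 kinesins were called for knockout against wild type, 3 against regenerating cells and 0 for regenerating against wild type. In hindgut, 3 were called for E14 and E12, 9 for E16 and E14 and 4 for E16 and E11. In single cells, the summed level was 275 CPM with a UMI minimum 2 times as high and 252 CPM with at most 10% mitochondrial UMIs. The share of kinesin UMIs in the top mitosis cluster was 31.3% and 28.7% with a lower and a higher UMI minimum, 32.4% with the mitochondrial limit, 57.6% at resolution 0.5 and 33.7% without marked doublets. With cluster 3 in place of cluster 5, an alternative chosen after seeing the data, Spearman's rho of the knockout minus wild-type differences with the single-cell percentage was 0.93, against 0.71.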
